A study of Mus musculus with 6 samples.

Results

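Striatal projection neurons are the GABA-releasing output neurons of the striatum, the region that borders the subventricular zone (SVZ), the neurogenic layer along the lateral ventricle. They form a direct pathway, whose cells carry the D1 dopamine receptor and make substance P, and an indirect pathway, whose cells carry the D2 dopamine and A2A adenosine receptors and make enkephalin. In both, dopamine acts through G proteins that raise or lower cyclic AMP (cAMP), which adenylyl cyclase makes, phosphodiesterases break down and the phosphoprotein DARPP-32 relays to phosphatases. The 9 genes Drd1, Drd2, Adora2a, Ppp1r1b, Penk, Tac1, Rgs9, Pde10a and Adcy5 were followed here, matched by symbol. They, and the gene lists set beside them below, were chosen with earlier results of these data known. Of the 9 genes, 8 were each read by at least 1 probe set (a group of probes for 1 transcript) annotated with that symbol alone. In all, 18193 genes were measured. Adora2a, the A2A receptor gene, had none in the annotation used and was not analysed here.

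Each of the 6 microarrays held total RNA from the SVZ of adult male C57BL/6 mice, 48 h after surgery. In 3 samples the middle cerebral artery had been occluded (MCAO), a stroke model in which the blocked artery supplies the striatum and lateral cortex, and the SVZ was taken on the side of the lesion. The other 3 samples came from sham-operated mice. No allele or drug is given for either group, and no source says whether every array came from a different mouse, so p-values measure the spread between these samples only, which may be technical.

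The MCAO label was checked on glial injury genes. Vim, an intermediate filament gene of reactive glia, rose by 2.34 ± 0.19 log2 (SE, n = 3 per group; limma, adjusted p = 0.00304). Gfap, the astrocyte filament gene, read 2.69 ± 0.63 log2 higher without passing (adjusted p = 0.140, and 5.64e-07 when the sample number was a block). Both arrays numbered 1 stood apart in the labelling controls: the spiked-in poly-A probe sets averaged 7.69 log2 on MCAO 1 and 7.96 on sham 1, against 8.65 to 9.23 on the other arrays. As a sign of RNA quality, the 3′ minus 5′ difference of the Actb control probe sets was 0.94 to 1.10 log2 in MCAO and 0.95 to 1.30 in sham. All expression values below are log2 values after quantile normalisation, unless the deposited scale is named, and each difference is MCAO minus sham.

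All 8 measured genes read lower in MCAO than in sham, by small amounts (52.3% of all genes read lower), and 0 of 8 passed the threshold (adjusted p under 0.05 by limma over all 18193 genes). The differences ran from −0.34 log2 for Drd1 to −0.15 for Rgs9, with a median of −0.20, while the median over all genes was −0.0064. Over all genes 0.0165% fell and 1.12% rose by the same test. At an unadjusted p under 0.05, 3 of the 8 (Drd1, Adcy5 and Tac1) read lower, against 2.46% of all genes. The 3 MCAO values lay below all 3 sham values for 4 of the 8, namely Drd1, Tac1, Penk and Adcy5, against 5.37% of all genes. Among the 1821 genes at least as bright as the dimmest of the 8, that share was 8.9%. In whole tissue, a smaller share of projection neurons in the sample and less RNA of these genes per neuron cannot be told apart.

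**Figure D1:**
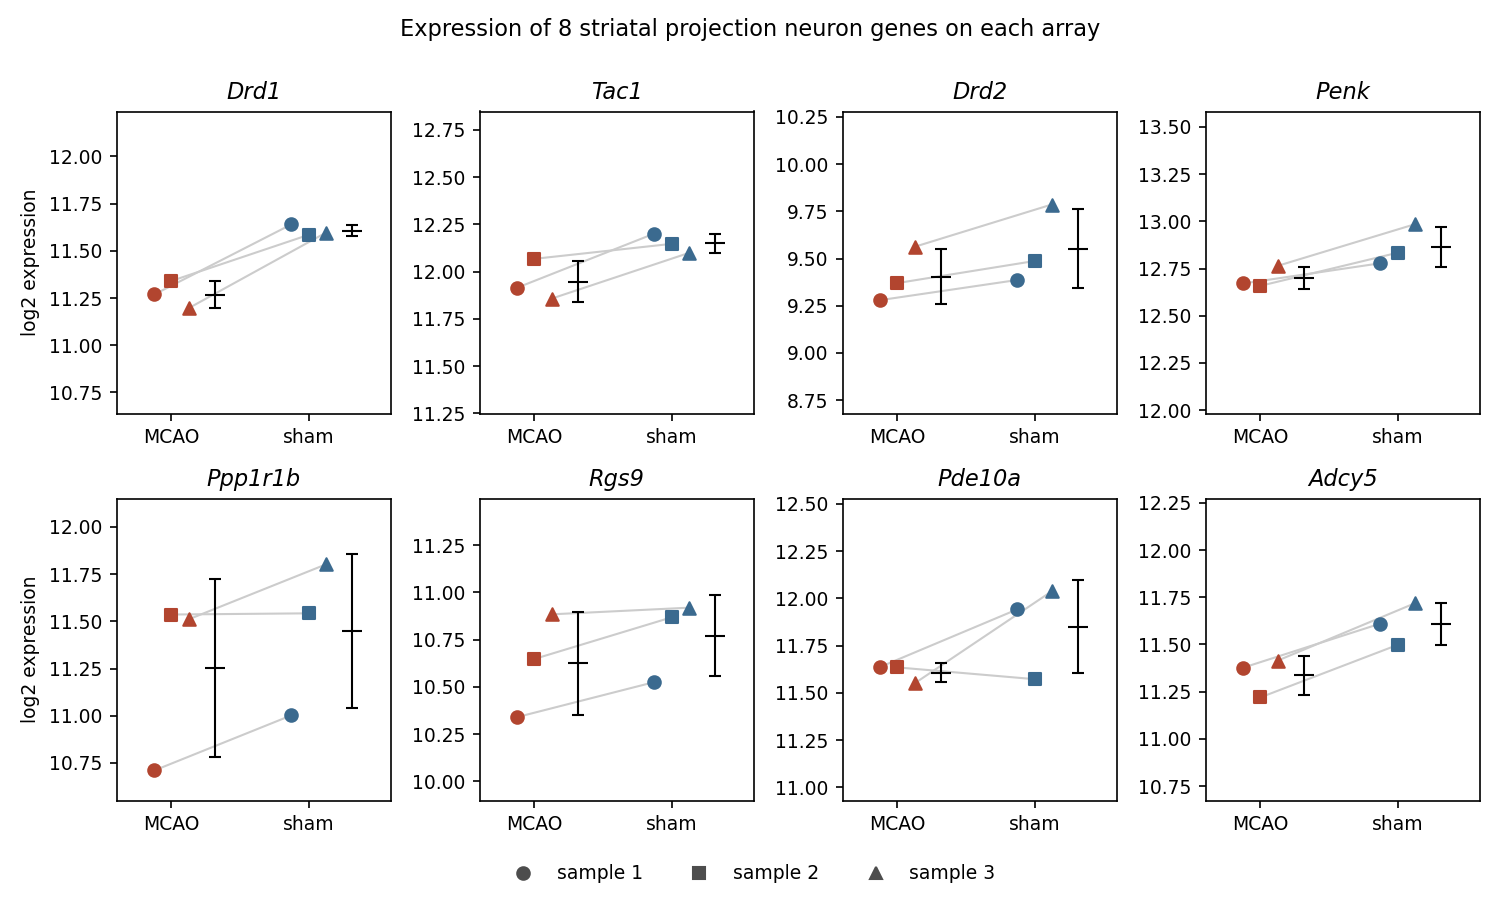
Expression (log2, quantile-normalised) of the 8 genes on each array, MCAO left and sham right, with marker shapes for the sample number, grey lines joining same-numbered samples and black bars for the mean ± SD (n = 3). Every panel spans the same number of log2 units. Drd1 separates the groups most clearly, and Ppp1r1b differs more between sample numbers than between groups.

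Among the direct pathway genes, Drd1 encodes the D1 dopamine receptor, which stimulates cAMP production. It read 11.27, 11.34 and 11.20 in MCAO samples 1, 2 and 3, against 11.64, 11.58 and 11.60 in sham samples 1, 2 and 3. All MCAO values were below all sham values, with little spread in either group. The difference was −0.34 ± 0.073 log2 (SE, n = 3 per group), or 0.79-fold the sham level, with a 95% interval of 0.70-fold to 0.89-fold. It did not pass in the unpaired fit (adjusted p = 0.101) but passed once sample number was a block (adjusted p = 0.0179). It did not pass with the block on the deposited scale (adjusted p = 0.156).

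Tac1, the precursor gene of substance P and neurokinin A, read 11.92, 12.07 and 11.86 in MCAO samples 1, 2 and 3, against 12.20, 12.15 and 12.10 in the sham samples. The groups did not overlap, though MCAO 2 lay close below sham 3. The difference was −0.20 ± 0.082 log2 (SE; limma, adjusted p = 0.510), with a 95% interval from −0.39 to −0.012. It was −0.10 when the gene's bright and dim probe sets were averaged.

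The upstream sequences of these direct pathway genes, from RefSeq on build GRCm38.p6, are shown because neither gene's groups overlapped and because cAMP-responsive genes often carry the cAMP response element (CRE). Each run gives the 250 bases before an annotated start, 5′ to 3′ on the gene's strand, with CRE half-sites (TGACG or its reverse complement CGTCA) in capitals.
Drd1, chr13:54055659-54055908, minus strand: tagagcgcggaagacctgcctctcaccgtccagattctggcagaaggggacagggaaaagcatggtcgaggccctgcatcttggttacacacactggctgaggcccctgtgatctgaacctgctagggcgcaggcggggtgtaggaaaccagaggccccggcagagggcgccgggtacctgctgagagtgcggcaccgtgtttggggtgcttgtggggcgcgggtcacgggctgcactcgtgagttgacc
Tac1, chr6:7554811-7555060, plus strand: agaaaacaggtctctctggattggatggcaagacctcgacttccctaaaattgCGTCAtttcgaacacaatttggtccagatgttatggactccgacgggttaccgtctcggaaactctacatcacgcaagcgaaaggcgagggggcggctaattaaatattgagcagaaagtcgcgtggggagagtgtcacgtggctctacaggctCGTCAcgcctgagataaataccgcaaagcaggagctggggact

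The Tac1 window held 2 half-sites, whose first bases lie at −197 and −43 from the start. The Drd1 window shown, 1 of 2, held 0. The groups of Adcy5 did not overlap either, and its window, not shown, held 0. Windows were found for 6 of the 9 genes (8 windows, since Drd1 and Pde10a have 2 starts each), and the Tac1 window was the 1 of 8 with a half-site. Of all 32851 upstream windows of this length, 17.8% held a half-site on either strand. The full element TGACGTCA, found in 1.55% of all windows, and the EGR sites GCGTGGGCG and GCGGGGGCG, found with their reverse complements in 3.06%, were in 0 of the 8. These are letter matches only.

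Of the indirect pathway genes, Penk encodes proenkephalin, the precursor of the enkephalin opioid peptides. It read 12.67, 12.66 and 12.76 in MCAO samples 1, 2 and 3, against 12.78, 12.83 and 12.98 in the sham samples. The highest MCAO value, in sample 3, lay just below the lowest sham value, in sample 1. The difference was −0.17 ± 0.082 log2 (SE; limma, adjusted p = 0.668), with a 95% interval from −0.36 to 0.02. Leaving out single arrays gave −0.21 (without sham 1) to −0.11 (without sham 3).

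Drd2 encodes the D2 dopamine receptor, which inhibits adenylyl cyclase. Its values were 9.28, 9.37 and 9.56 in MCAO samples 1, 2 and 3, against 9.39, 9.49 and 9.79 in the sham samples. The groups overlapped, and sample 3 was the highest in both. The difference was −0.15 ± 0.12 log2 (SE; limma, adjusted p = 0.893), and leaving out single arrays gave −0.23 (without sham 1) to −0.03 (without sham 3).

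Of the 4 genes that both pathways use, Adcy5, the main adenylyl cyclase of the striatum, read 11.38, 11.22 and 11.41 in MCAO samples 1, 2 and 3, against 11.61, 11.50 and 11.72 in the sham samples. All MCAO values were below all sham values, and sample 2 was the lowest of each group. The difference was −0.27 ± 0.090 log2 (SE; limma, adjusted p = 0.356), or 0.83-fold the sham level with a 95% interval of 0.72-fold to 0.96-fold. It passed with the sample number as a block (adjusted p = 0.0404), and not with the block on the deposited scale (adjusted p = 0.240). As the mean over the gene's 4 probe sets it was −0.14.

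Pde10a encodes the phosphodiesterase that breaks down cyclic nucleotides in projection neurons. It read 11.64, 11.63 and 11.55 in MCAO samples 1, 2 and 3, against 11.94, 11.57 and 12.04 in the sham samples. Sham 2 lay among the MCAO values, while sham 1 and sham 3 lay above them. The difference was −0.24 ± 0.12 log2 (SE; limma, adjusted p = 0.685), and leaving out single arrays gave −0.38 without sham 2 (adjusted p = 0.165) to −0.15 without sham 3.

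Ppp1r1b encodes DARPP-32, which inhibits protein phosphatase 1 once protein kinase A has phosphorylated it. Its values were 10.71, 11.54 and 11.51 in MCAO samples 1, 2 and 3, against 11.00, 11.54 and 11.80 in the sham samples. Both samples numbered 1 were the lowest of their group by more than the groups differed. The difference was −0.20 ± 0.27 log2 (SE; limma, adjusted p = 0.955), with a 95% interval from −0.82 to 0.42, and leaving out single arrays gave −0.42 (without sham 1) to 0.075 (without MCAO 1).

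Rgs9 encodes a regulator that shortens G protein signals and whose long form is enriched in the striatum. It read 10.34, 10.65 and 10.88 in MCAO samples 1, 2 and 3, against 10.53, 10.87 and 10.92 in the sham samples. The groups overlapped, and sample 1 was the lowest of each. The difference was −0.15 ± 0.16 log2 (SE; limma, adjusted p = 0.938), and leaving out single arrays gave −0.28 (without MCAO 3) to −0.0048 (without MCAO 1).

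**Figure D2:**
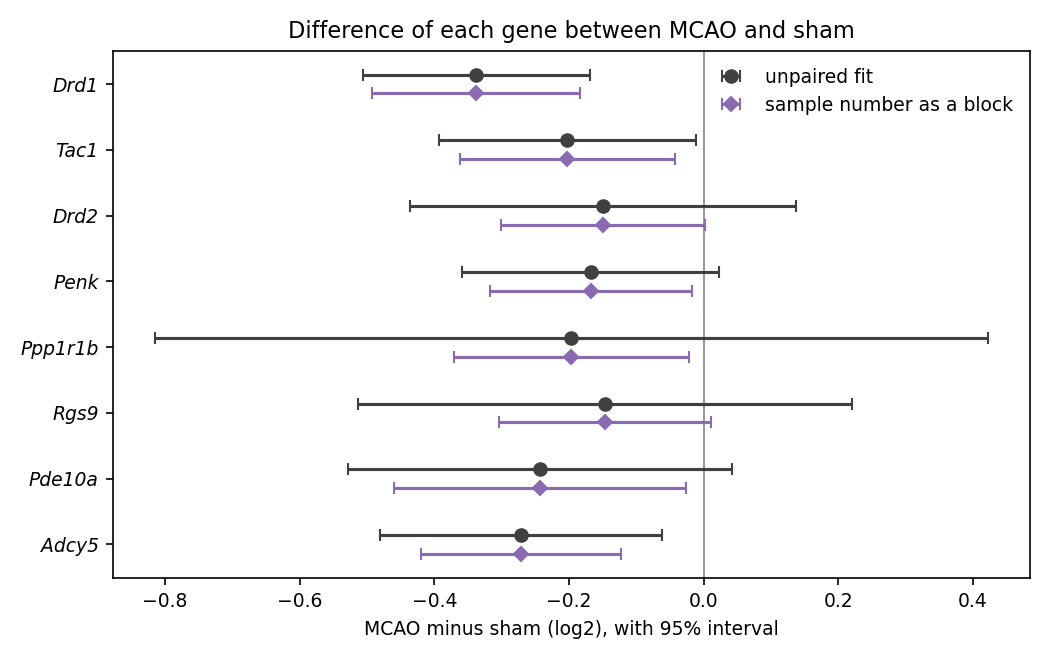
MCAO minus sham (log2) for each of the 8 genes, with 95% intervals from limma without a block (circles) and with sample number as block (diamonds). The point estimates are the same in both fits, and the interval of Ppp1r1b narrows from −0.82 to 0.42 without the block to −0.37 to −0.02 with it. The intervals are not adjusted for the number of genes, and Ppp1r1b did not pass with the block (limma, adjusted p = 0.203).

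The labels number the samples 1 to 3 in each group but state no pairing, so whether the numbers pair the samples is not known. Same-numbered arrays deviated together across genes, and differences were also taken within numbers. With quantile normalisation, 23 of the 24 differences within numbers were below 0, the exception being Pde10a in sample 2 at 0.06 log2. The range was −0.40 to −0.24 for Drd1 and −0.30 to −0.23 for Adcy5, the gene with the smallest spread between numbers (SD 0.035). For Ppp1r1b the differences were −0.29, −0.01 and −0.29 in samples 1, 2 and 3. Of the 8 genes, 7 were lower in MCAO in all 3 numbers, against 19.9% of all genes. With the number as a block 2 of 8 passed, Drd1 and Adcy5, both lower, while over all genes 1.3% fell and 4.82% rose in that fit. Of the 1821 genes at least as bright as the dimmest of the 8, 91 fell in it.

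The values as deposited gave a different picture in sample 2. There, 3 of the 8 genes (Drd1, Rgs9 and Adcy5) were lower in MCAO 2 than in sham 2, while Tac1, Drd2, Penk, Ppp1r1b and Pde10a were higher, by 0.0047 log2 for Penk up to 0.27 for Pde10a. In samples 1 and 3 all 8 genes were lower in MCAO on that scale too. The deposited Drd1 values were 11.35, 11.45 and 11.09 in MCAO samples 1, 2 and 3, against 11.66, 11.49 and 11.59 in the sham samples, with MCAO 2 just below sham 2. On that scale 3 of the 8 were lower in all 3 numbers, against 11.1% of all genes. Drd1 was the 1 gene of the 8 whose groups did not overlap on the deposited scale, against 3.05% of all genes. The group differences there ran from −0.29 for Drd1 to −0.08 for Penk. With the block on that scale 0 of 8 passed, and 0.28% of all genes fell.

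**Figure D3:**
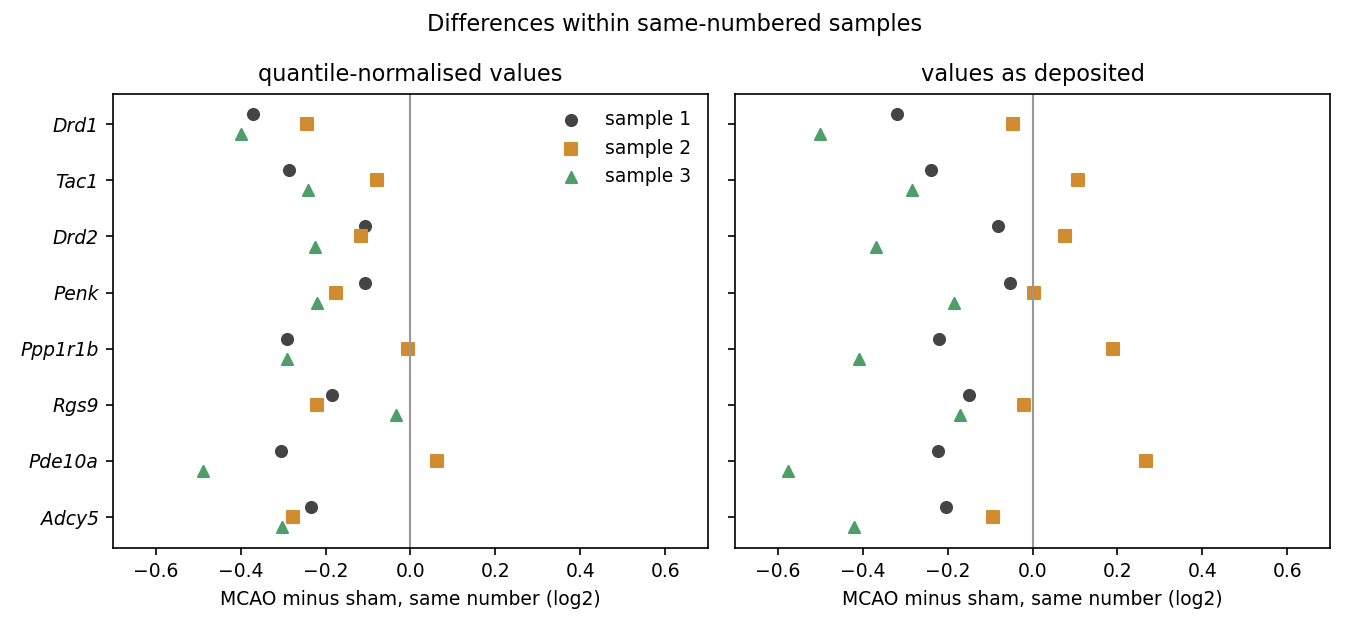
MCAO minus sham (log2) within each sample number for the 8 genes, on quantile-normalised values (left) and on the values as deposited (right). In sample 2 (squares) 7 of the 8 genes are below 0 on the left and 3 on the right, while samples 1 and 3 are below 0 for all 8 genes on both.

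Of the 8 genes, 3 had 1 probe set and 5 had several, giving 11 further probe sets, of which 10 read lower in MCAO. The exception was a dim Tac1 probe set at 0.0043 log2. The other Drd1 probe set read 10.59, 10.39 and 10.24 in MCAO samples 1, 2 and 3, against 10.68, 10.56 and 10.55 in the sham samples. Its groups overlapped, with MCAO 1 above sham 2 and sham 3. Its difference was −0.19 ± 0.10 log2 (SE, limma over all probe sets, adjusted p = 0.816, and 0.254 with the block). The mean over both Drd1 probe sets gave −0.26 log2 (limma, adjusted p = 0.231). Of the other Pde10a probe sets, the next brightest 2 showed larger differences than the one used, at −0.35 and −0.42 log2 (adjusted p = 0.624 and 0.590, and 0.0220 and 0.0367 with the block). A dimmer Rgs9 probe set read −0.30 log2, with all MCAO values below all sham values. It did not pass (limma over all probe sets, adjusted p = 0.293, and 0.05004 with the block). The dimmest Rgs9 probe set read −0.04 log2. The 3 other Adcy5 probe sets, all dimmer, showed smaller differences than the one used, at −0.07, −0.09 and −0.11 log2, and the mean over all 4 did not pass (limma, adjusted p = 0.678). Adjusted over all probe sets with the block, the Adcy5 probe set used did not pass (adjusted p = 0.0678), and the Drd1 probe set used did (adjusted p = 0.0326). With the block, 0.61% of all 34945 probe sets with 1 symbol fell.

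Other genes known from projection neurons read lower as well. All 21 measured markers were below sham, with a median of −0.22 log2 and a range from −0.57 to −0.05, and 0 passed. Rasgrp2, a guanine nucleotide exchange factor for Rap that is enriched in the striatum, had the smallest p, at −0.57 ± 0.13 log2 (SE; adjusted p = 0.130). With the block 7 of the 21 fell, against 1.3% of all genes. The blocked adjusted p of Rasgrp2 was 0.00243 by limma, and 0.00244 on the deposited scale. Of the 106 measured genes of this list and the pathway lists, 16 passed with the block and 6 with the block on the deposited scale. The mean over the probe sets of Rasgrp2 gave −0.27 (limma, adjusted p = 0.201). The mean of the list on each array ran from 9.41 to 9.52 log2 in MCAO and from 9.63 to 9.82 in sham. For comparison, 58.4% of the 1821 genes at least as bright as the dimmest of the 8, Drd2, read lower in MCAO, and their median was −0.042. That cut was set by the 8 genes, and no background was matched to the brightness of the 21 markers.

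The pathway around the 8 genes was described by 7 lists, with medians from −0.39 to −0.04 log2, beside −0.20 for the 8 genes. Of 14 G proteins and regulators 11 read lower (median −0.19), with Gnb5, the G protein beta subunit that binds Rgs9, first by p at −0.30 log2 (adjusted p = 0.175, 0.0365 with the block, and 0.176 with the block on the deposited scale). The mean over the probe sets of Gnb5 was −0.17. Of 19 kinase A and phosphatase genes 18 read lower (median −0.14), led by Prkar2b, a regulatory subunit of protein kinase A, at −0.28 (adjusted p = 0.208). All 11 other phosphodiesterases read lower (median −0.17), with Pde1c first at −0.25 (adjusted p = 0.676), and at −0.10 as the mean over its probe sets. In none of these 3 lists did a gene pass, and with the block 2, 1 and 0 fell.

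Of 8 other adenylyl cyclases 6 read lower (median −0.13), and 0 passed. The smallest p belonged to Adcy7, a cyclase also abundant in immune cells, which read 0.67 ± 0.15 log2 higher (SE; adjusted p = 0.130; blocked, 0.00250) by a probe set that may bind related transcripts. With the block 1 of the 8 rose and 1 fell. Of 5 measured dopamine and adenosine receptor and dopamine metabolism genes of a list of 9, 4 read lower (median −0.04), and Maoa, a monoamine oxidase, stood 0.32 above sham (adjusted p = 0.280; 0.0210 with the block). As the mean over its probe sets, the Maoa difference was 0.035 (adjusted p = 0.982). Of 14 opioid and tachykinin receptors and other neuropeptides 10 read lower (median −0.06), with Oprk1, the kappa opioid receptor gene, first at −0.19 (adjusted p = 0.729). With the block 0 of these 14 passed.

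Activity-dependent genes, which neurons switch on through cAMP and calcium, had the most negative median of these lists. Of 14 measured, 12 read lower (median −0.39 log2) and 1 fell. It was Egr1, an immediate early transcription factor, by 0.47 ± 0.084 log2 (SE, n = 3 per group; limma, adjusted p = 0.0499, and 0.00522 with the block). Egr1 lost this call without each of the 6 arrays in turn, at adjusted p from 0.0638 without sham 2 to 0.240 without sham 3, and on the values as deposited (0.231). With the block 3 of the 14 fell, against 1.3% of all genes.

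**Figure D4:**
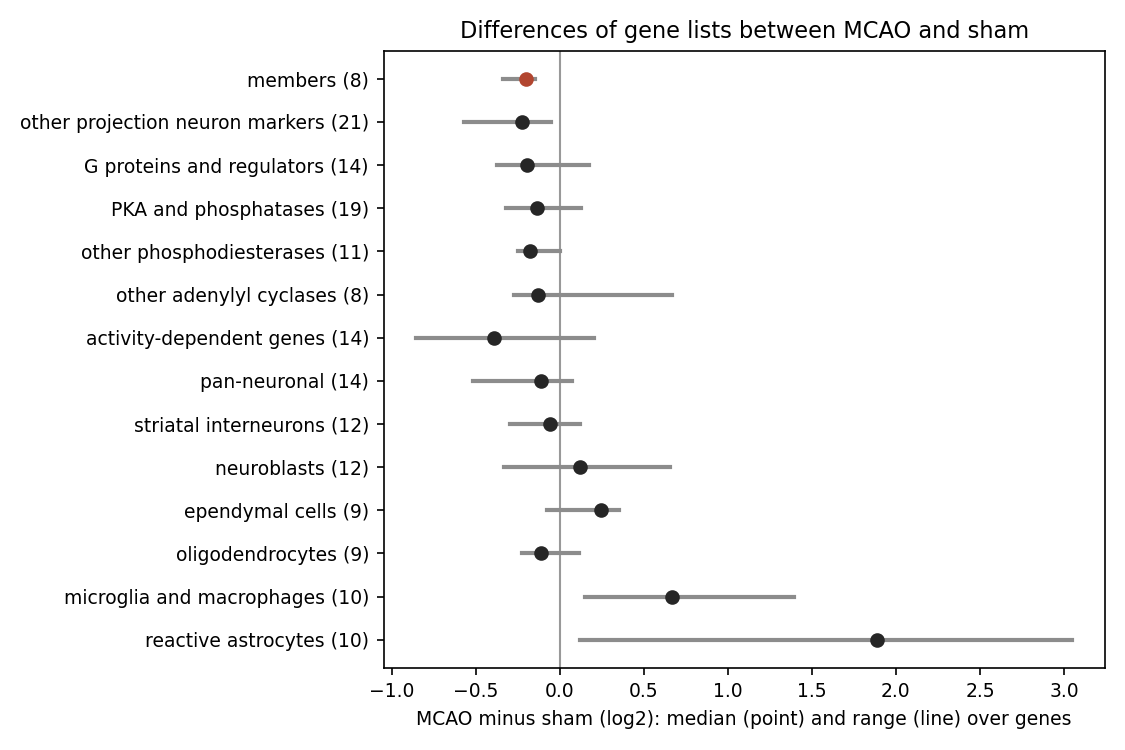
Median (point) and range (line) of MCAO minus sham (log2) over the measured genes of each list, with the number of genes in parentheses. The 8 members (red point) have a median of −0.20 and stay below 0 throughout. Near them lie the other projection neuron markers at −0.22, the G proteins and regulators at −0.19 and the other phosphodiesterases at −0.17. The reactive astrocyte genes have a median of 1.89.

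Markers of other cells in the tissue moved as follows, and their part in the lower values of the 8 genes was not tested. Of 14 pan-neuronal genes 13 read lower (median −0.11 log2), with Nefm, a neurofilament gene, first at −0.51 (adjusted p = 0.122, and 0.00279 with the block), and 2 of the 14 fell with the block. Their mean per array was 10.16 to 10.39 in MCAO and 10.33 to 10.56 in sham. The 3 measured of 5 GABAergic neuron genes all read lower (median −0.18), with Gad1, which makes GABA, at −0.18 (adjusted p = 0.645). Of 12 striatal interneuron and dopamine neuron genes 10 read lower (median −0.06), with Lhx8, a cholinergic interneuron factor, first at −0.25 (adjusted p = 0.255). Of 9 glutamatergic neuron genes of other regions 7 read lower (median −0.06), with Cux2, a cortical layer factor, first at −0.15 (adjusted p = 0.727), and 1 of the 9 fell with the block. The mean of these last was 6.36 to 6.53 in MCAO and 6.46 to 6.63 in sham, and 2 of the 9 lay above the median gene in sham.

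Reactive astrocyte, microglia and astrocyte genes included calls in the other direction. Of 10 reactive astrocyte genes 7 rose (median 1.89), led by Cd44, S1pr3 and Serpina3n at 1.97, 2.01 and 3.05 log2 (each with adjusted p = 0.00304), and the list's mean was 8.68 to 9.24 in MCAO and 7.01 to 7.37 in sham. Of 10 microglia and macrophage genes 4 rose (median 0.67), led by C1qa at 1.39, Tyrobp at 1.22 and Cd68 at 1.22, with list means of 9.06 to 9.56 in MCAO and 8.47 to 8.54 in sham. With the block 8 of the 10 reactive astrocyte genes and 9 of the 10 microglia and macrophage genes rose, against 4.82% of all genes. Of 10 astrocyte genes 2 rose (median 0.14), Aldh1l1 by 0.89 and Aqp4 by 0.97, and 3 read lower. The differences ran from −0.28 to 2.69, the highest being that of Gfap, which is also in the reactive astrocyte list. The list means, Gfap included, were 10.24 to 10.35 in MCAO and 9.71 to 9.86 in sham, and 4 genes rose with the block. Without sham 3, Aldh1l1, Aqp4, Tyrobp and Cd68 lost their calls (adjusted p = 0.0543, 0.200, 0.0841 and 0.101). Without MCAO 3, Aqp4, Tyrobp and Cd68 did (0.120, 0.0695 and 0.0875), as did Tyrobp without MCAO 2 (0.0515), Cd68 without sham 2 (0.0638), and Aqp4 without sham 1 or sham 2 (0.0827 and 0.144). Aqp4 did not pass on the values as deposited (0.0866).

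In the remaining 5 lists 0 genes passed, and with the block 1 rose in each of the neuroblast, ependymal and endothelial lists. Of 12 neuroblast genes 4 read lower (median 0.12), with Dlx6, an interneuron lineage factor, first at −0.33 (adjusted p = 0.226). Of 9 ependymal genes 1 read lower (median 0.25), with Foxj1, the motile cilia factor, first at 0.25 (adjusted p = 0.840). The ependymal mean was 9.50 on MCAO 2 and 9.39 on sham 2, against 8.54 to 8.92 on the other arrays, so that both samples numbered 2 were the highest of their group. Of 9 choroid plexus genes 2 read lower (median 0.08), with Ttr, the transthyretin gene, first at −0.28 (adjusted p = 0.689). Of 9 oligodendrocyte genes 6 read lower (median −0.11), with Mbp, a myelin protein gene, first at −0.11 (adjusted p = 0.876). Of 9 endothelial genes 2 read lower (median 0.14), with Vwf, the von Willebrand factor gene, first at 0.39 (adjusted p = 0.327, and 0.00637 with the block).

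The mean of the 8 genes was 11.15, 11.31 and 11.34 log2 in MCAO samples 1, 2 and 3, and 11.39, 11.44 and 11.62 in the sham samples. As deposited it was 11.21, 11.42 and 11.24 in MCAO samples 1, 2 and 3, and 11.40, 11.36 and 11.60 in the sham samples. The groups did not overlap after quantile normalisation, while on the deposited scale MCAO 2 lay above sham 1 and sham 2. On quantile-normalised values, the single genes differed in how closely they followed this mean: after centring, the root mean square distance over the 6 arrays was 0.056 log2 for Penk and 0.28 for Ppp1r1b. Among all other genes, the 5 with the smallest distance to the mean profile were Mmp17 at 0.022 log2, Phactr1 at 0.024, Phlda1 at 0.026, 9330151L19Rik at 0.029 and Rasl10b at 0.030. Because they were chosen by this distance, their differences between MCAO and sham had to lie near that of the mean profile. These ran from −0.24 for Rasl10b to −0.17 for 9330151L19Rik. None of the 5 passed with or without the block (limma, adjusted p of at least 0.510 without it and at least 0.0796 with it).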

How the data were processed

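The deposited table holds log2 values, 1 for each of 45101 probe sets, of which 64 are manufacturer's controls. How the authors corrected background, summarised probes and normalised is not given in the sources used here. The medians of the arrays already lay close together, from 6.57 to 6.59, while the 90th percentiles ran from 8.85 to 9.06. Quantile normalisation was added for the latter, and whether it was needed was not tested. Probe sets were named from the platform annotation (34958 with 1 symbol, 932 with several, 9211 with none); controls were left out, and the probe set with the highest mean stood for each of 18193 genes. Group differences were tested with limma 3.58.1 (lmFit and eBayes under R 4.3.3), 2-sided, with Benjamini-Hochberg adjustment over all genes. The fit without a block was also run on simulated independent arrays, with changes larger than those of the members. That run says nothing of the block or of changes as small as theirs. An exact test of 3 against 3 cannot go below p = 0.1. Deviations of same-numbered arrays from their group means correlated across genes at 0.77, 0.44 and 0.48. Differently numbered arrays were not compared in this way, and the labels state no pairing. The fits with a block therefore assume that the number pairs the samples, which these correlations cannot settle.

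The members and the 20 lists (7 of pathways, 13 of cell markers) were chosen with earlier results of these data known. Of each list, the text names up to 3 genes past the threshold, or else the 1 with the smallest p; the 5 genes nearest to the members' mean profile, Gfap and Vim were added. The number of arrays limits the precision. Alternatives covered normalisation, probe set choice, dim genes, the variance model, the block and leaving out arrays.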

Additional observations from a re-analysis of the deposited data

How the results depend on the processing

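For the 8 genes, all differences stayed below 0 under every alternative run, except Ppp1r1b, which ran from −0.42 without sham 1 to 0.075 log2 without MCAO 1; these were the lowest arrays of their groups. Calls appeared under 1 setting: with the sample number as a block on quantile-normalised values, Drd1 (−0.34) and Adcy5 (−0.27) passed, so 2 of the 8 did. Both point estimates are those of the fit without it, since the block changes only the error. On all other settings, the block on the deposited scale included, 0 passed. Over all genes, 206 passed, 1113 with the block and 816 with the block on the deposited scale, and leaving out single arrays gave 44 (without sham 3) to 209 (without MCAO 1). Of the 106 measured genes of the pathway lists and the projection neuron list, 1 passed; it was 16 with the block, 6 with the block on the deposited scale, and 0 on the deposited scale without it, after a shift to equal medians, with dim genes left out or with robust variance, and 0 to 1 with single arrays left out. The count was also 1 with an intensity trend, without MCAO 1 and without both arrays numbered 1, but Egr1 was not the gene called there (its adjusted p = 0.0895, 0.0894 and 0.110). The mean over a gene's probe sets, in place of the brightest, lowered Adcy5 to −0.14 and Tac1 to −0.10, and among the genes named from the lists it lowered Cd44 to 1.15, S1pr3 to 1.23 and Aldh1l1 to 0.51, which still passed (adjusted p = 0.00357, 0.00609 and 0.0261), and Adcy7 to 0.41, which had not passed. With that mean Aqp4 lost its call at 0.89 (limma, adjusted p = 0.121), and Gfap gained one at 2.85 (adjusted p = 0.0285). The cause of these shifts was not tested. Without both arrays numbered 1, Drd1 read −0.32 and Ppp1r1b −0.15. Arrays give no read depth, and their number sets the error.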
